A study of Mus musculus with 8 samples.

Results

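A set of 10 genes that mark fibroblasts of the vessel wall and connective tissue, and their progenitors, was followed through RNA-seq libraries of mouse stromal cells. They are listed in the deposited tables as pi16, dpt, clec3b, tnxb, cd34, ly6a, ly6c1, thy1, htra3 and cygb, and were chosen by symbol. The choice drew on earlier results of these data, in which several of them were far higher in stromal cells than in cultured embryonic fibroblasts. Levels of the 10 members against those fibroblasts are therefore given as a description with no test, and tests of the members are kept for differences between tissues. Other gene lists are also tested against those fibroblasts, but they too were drawn up with earlier results known, so their counts there are not independent evidence of a direction. All 10 of 10 members passed the filter on low counts, among 14847 genes tested of 22558 listed.

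The libraries fall into 4 groups of 2. FAP+ cells, which carry the surface protease fibroblast activation protein, were sorted by flow cytometry from dissociated visceral adipose tissue, skeletal muscle and pancreas. The labels name the pancreatic cells as pancreatic stellate cells. The comparison group was FAP-negative mouse embryonic fibroblasts (MEFs), embryonic cells sorted as FAP-, grown for 3 passages in culture and sorted again. The labels give no strain, genotype, age, sex or treatment for any group. Each group was isolated in duplicate experiments, and the labels call the libraries biological replicates. MEFs differ from the other groups in FAP, in origin and in having been cultured, and these cannot be told apart. All RNA was amplified with MessageAmp, which copies from the poly(A) tail, so that coverage leans toward the 3′ end.

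Estimated fragments ranged from 15516319 to 27759399 per library. Levels are given as CPM, estimated fragments relative to the library's TMM-scaled total, which compares a gene between libraries. Levels of different genes are compared only as FPKM, which also divides by length. A library's floor of 3 fragments lay between 0.0899 and 0.229 CPM, and floors and counting intervals cover counting error only. The first adipose library stands apart. Its correlation with the second was 0.918, against 0.973 to 0.980 within the other groups, its scaling factor was 0.516, and its adipocyte marker sum was 6515 CPM against 829 in the second and at most 91.4 outside adipose. Fabp4 alone made up 6442 and 782 CPM of the 2 adipose sums. Fap itself read 28.0 and 34.4 CPM in adipose, 88.7 and 107 CPM in muscle, 55.4 and 65.6 CPM in pancreas, and 2.37 and 0.516 CPM in MEFs.

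As background, fibroblasts of many organs share a pool of cells in the adventitia and in connective tissue sheets that carry Pi16 and Dpt, often called universal fibroblasts. Pi16+ cells commonly carry Dpp4, Cd34 and Ly6a (Sca-1), surface antigens used to isolate mesenchymal progenitors, whereas parenchymal fibroblasts around capillaries and epithelium are often marked by Col15a1. Skeletal muscle has a related population, the fibro-adipogenic progenitors, which also carry Ly6a and Cd34. In bulk libraries, fewer cells of a type and less RNA per cell cannot be told apart.

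Promoter sequences are shown for Pi16 and Dpt, the 2 genes that name this set, because they differ in their order across tissues. Of the 10 members, 6 have an entry in the RefSeq promoter table of build GRCm38.p6, and the 250 bases before the annotated start are printed 5′ to 3′ on the gene's strand. Pi16 lies on the plus strand of chromosome 17 with its window at chr17:29318632-29318881. Dpt lies on the plus strand of chromosome 1 with its window at chr1:164796413-164796662. Capitals mark matches to 6 motifs searched on both strands: the TATA box TATAAA, the CCAAT box, the GC box GGGCGG, the AP-1 site TGANTCA, the TEAD site CATTCC and the E-box CAGCTG.
Pi16: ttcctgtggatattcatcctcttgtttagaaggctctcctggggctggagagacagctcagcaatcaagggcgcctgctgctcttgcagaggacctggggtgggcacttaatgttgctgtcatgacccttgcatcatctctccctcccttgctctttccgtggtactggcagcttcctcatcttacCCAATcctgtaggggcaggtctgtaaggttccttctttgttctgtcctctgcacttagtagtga
Dpt: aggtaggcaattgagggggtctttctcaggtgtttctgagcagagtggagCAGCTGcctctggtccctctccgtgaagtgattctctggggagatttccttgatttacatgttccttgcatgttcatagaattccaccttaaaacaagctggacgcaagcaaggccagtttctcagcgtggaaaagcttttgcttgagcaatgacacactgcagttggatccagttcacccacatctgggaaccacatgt
The Pi16 window holds 1 match, a CCAAT box 64 to 60 bases before the start. That word occurs in 33.9% of the 32851 windows searched, which leave out 1 chromosome of the table. The Dpt window also holds 1 match, the E-box CAGCTG 200 to 195 bases before the start, which 13.0% of windows hold. TATAAA occurs in 12.4% of the windows searched, GGGCGG in 32.7%, TGANTCA in 6.75% and CATTCC in 12.6%. None of these 4 words was found in either printed window. GC content was 52.4% for Pi16 and 48.8% for Dpt, against a median of 52.4% over the windows searched. These matches describe letters only, and no binding was measured.

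Pi16 encodes a secreted peptidase inhibitor of the CAP family and was the 1 member called between tissues. It read 745 and 1119 CPM in adipose, 4276 and 2918 CPM in muscle, and 1957 and 1918 CPM in pancreas. In MEFs it read 0.150 and 0.243 CPM, from 13 fragments in the 2 libraries together. The 3 tissues did not overlap, with muscle highest and adipose lowest. Muscle was 3.86-fold above adipose (3597 ± 960 against 932 ± 265 CPM, SD, n = 2 each), a log2 difference of 1.95 ± 0.38 (SE). This passed edgeR's quasi-likelihood test at an adjusted p of 0.0285 over all genes, and both muscle libraries lay above both adipose libraries. Fap, the marker of the sort, and a sum of Schwann cell markers had the same order of tissues, and their part in this difference was not tested. Across all genes, 2.34% were called higher in muscle than in adipose and 3.78% lower, and Pi16 was the 1 call among the 10 members.

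Pancreas held an intermediate level of Pi16, at 1938 ± 27.3 CPM (SD, n = 2). It was 2.08-fold above adipose (log2 1.06 ± 0.37, edgeR adjusted p = 0.124) and 1.86-fold below muscle (log2 -0.89 ± 0.37, edgeR adjusted p = 0.333), and neither difference passed. The muscle-adipose call depended on the libraries and the fit. It held when either adipose library was left out (edgeR adjusted p = 0.0232 and 0.00253), and it missed the threshold when any muscle, pancreas or MEF library was left out, with adjusted p from 0.0577 to 0.222. It also missed with only these 2 groups in the fit (edgeR adjusted p = 0.178) and on limma's test of log2(FPKM + 1) and log2(FPKM + 0.1), at 0.0676 and 0.0721. The log2 difference stayed between 1.65 and 2.69 over the 17 alternative settings. Whole reads recovered from the deposited RPKM values gave the upper end of that range, 2.69 ± 0.55 (edgeR adjusted p = 0.0169). There the first adipose library read 77.6 RPKM and the second 351, a wider gap than in CPM. An antisense gene, AC162182.1, overlaps Pi16 in the GENCODE vM21 annotation, and whether counting used strand was not given in the sources used here, so reads of the 2 cannot be told apart.

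**Figure D1:**
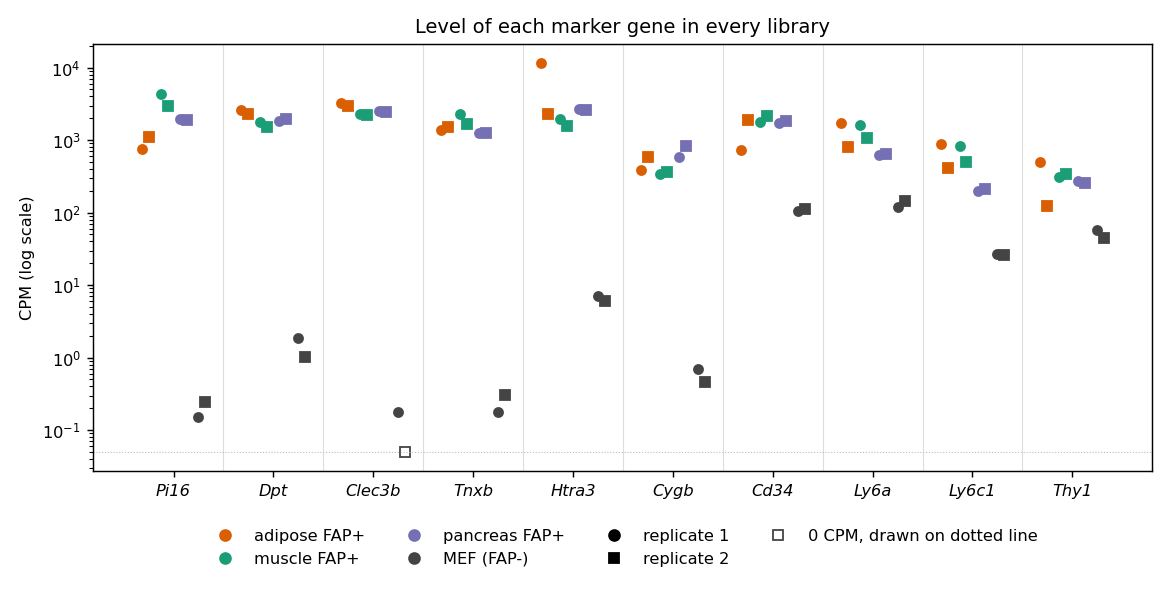
CPM of each of the 10 genes (log axis) in all 8 libraries, coloured by group, with circles for replicate 1 and squares for replicate 2. Every FAP+ value lies above both MEF values of its gene, the Clec3b value of 0 CPM in the second MEF library is drawn open on the dotted line, and Pi16 shows muscle above pancreas above adipose.

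Dpt encodes dermatopontin, a matrix protein that binds decorin and collagen fibrils. Its level was 2601 and 2280 CPM in adipose, 1791 and 1499 CPM in muscle, 1854 and 1936 CPM in pancreas, and 1.89 and 1.03 CPM in MEFs. The order by mean was adipose, pancreas, muscle, so that adipose, lowest for Pi16, was highest for Dpt. These differences were small. Muscle minus adipose was log2 -0.57 (95% interval -1.40 to 0.26, edgeR adjusted p = 0.364), pancreas minus adipose -0.36 (-1.19 to 0.46, edgeR adjusted p = 0.563) and pancreas minus muscle 0.20 (-0.62 to 1.03, edgeR adjusted p = 0.926). The tissue groups did not overlap, yet none of these differences exceeded the modelled spread. On FPKM the order of adipose and pancreas turned, at 932 and 1538 FPKM in adipose and 1358 and 1573 FPKM in pancreas.

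Clec3b encodes tetranectin, a secreted C-type lectin that binds plasminogen. It read 3238 and 2917 CPM in adipose, 2293 and 2215 CPM in muscle, 2484 and 2407 CPM in pancreas, and 0.180 and 0 CPM in MEFs. The MEF libraries held 6 fragments in all, and the recovered reads gave 4 and 2, so the second library's 0 belongs to the adjusted table alone. In FPKM it was the highest member in every FAP+ library, at 1915 to 3246, which ranked 10th to 83rd of the 22558 genes. This did not hold in RPKM. There Clec3b read 836 in the first adipose library, below Ly6a at 1506 and Dpt at 1377. In the first muscle library it read 1769 RPKM, below Ly6a at 2188. In CPM Clec3b was also the most even member, with 1.46-fold between its highest and lowest FAP+ library. On recovered reads Dpt was more even, at 2495 to 4069 CPM against 1498 to 2678 for Clec3b. Between tissues the log2 differences of Clec3b ran from -0.45 to 0.12, with edgeR adjusted p from 0.638 to 0.988 and 95% intervals reaching from -1.72 to 1.38.

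Tnxb encodes tenascin-X, a large matrix glycoprotein of collagen-rich tissue. It stood at 1368 and 1509 CPM in adipose, 2305 and 1682 CPM in muscle and 1248 and 1266 CPM in pancreas, against 0.180 and 0.303 CPM in MEFs (16 fragments). Muscle was highest here too, and the 3 tissues did not overlap. The muscle excess over adipose was log2 0.47 (95% interval -0.29 to 1.24, edgeR adjusted p = 0.413), and pancreas minus muscle was -0.66 (-1.43 to 0.10, edgeR adjusted p = 0.451). A pseudogene, Cyp21a2-ps, overlaps Tnxb on the opposite strand, with the same limit on counting as for Pi16.

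Htra3 encodes a secreted serine protease of the HtrA family. Its values were 11426 and 2287 CPM in adipose, 1930 and 1578 CPM in muscle, 2671 and 2574 CPM in pancreas, and 7.07 and 6.13 CPM in MEFs. A single library, the first of adipose, set the high adipose mean of 6857 ± 6463 CPM (SD, n = 2), and the other 5 FAP+ libraries lay within 1578 to 2671. Muscle minus adipose was log2 -1.97 ± 0.67 (edgeR adjusted p = 0.133) and pancreas minus adipose -1.39 ± 0.65 (edgeR adjusted p = 0.227). Without the first adipose library these became -0.39 (edgeR adjusted p = 0.382) and 0.19. Muscle minus adipose passed without the second adipose library (-2.70, edgeR adjusted p = 0.000639) and with DESeq2 (-2.04, adjusted p = 0.00950). The bias adjustment moved with this value, since that library carried 6.13 adjusted fragments per recovered read of Htra3 against 2.59 to 3.53 in the 7 others. On recovered reads muscle minus adipose was -0.53 ± 0.35 (edgeR adjusted p = 0.333). The adipocyte marker sum was highest in the same library, nearly all of it from Fabp4 (6442 of 6515 CPM). Of the other adipocyte markers, Plin1 was higher in the second adipose library (5.80 against 4.72 CPM) and the rest in the first. The part of adipocyte RNA in the result was not tested.

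Cygb encodes cytoglobin, an oxygen-binding globin known from hepatic and pancreatic stellate cells. It read 388 and 590 CPM in adipose, 345 and 367 CPM in muscle, 577 and 838 CPM in pancreas, and 0.689 and 0.455 CPM in MEFs. Pancreas had the highest mean, and it overlapped adipose but not muscle. Against muscle it was 1.99-fold higher (707 ± 184 against 356 ± 15.3 CPM, SD, n = 2; log2 0.99 ± 0.35, SE), which did not pass after adjustment over all genes (edgeR adjusted p = 0.227). Prcd, a protein-coding gene on the opposite strand, overlaps Cygb in the annotation.

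Cd34 encodes a sialomucin of progenitors and endothelium. In muscle it read 1763 and 2118 CPM, in pancreas 1733 and 1846, and in adipose 729 and 1904, against 104 and 111 CPM in MEFs. Apart from the first adipose library, the FAP+ values lay within 1733 to 2118 CPM, and the tissues overlapped in every pair. Log2 differences between tissues were 0.56, 0.44 and -0.12 for muscle minus adipose, pancreas minus adipose and pancreas minus muscle, with edgeR adjusted p from 0.477 to 0.980. Gm16897, an antisense gene, overlaps Cd34.

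Ly6a and Ly6c1 encode small GPI-anchored proteins of the Ly6 family, Sca-1 and a Ly6C antigen, and moved alike across libraries. Ly6a read 1713 and 791 CPM in adipose, 1629 and 1055 CPM in muscle, 619 and 637 CPM in pancreas, and 119 and 147 CPM in MEFs. Ly6c1 read 879 and 419 CPM in adipose, 834 and 507 CPM in muscle, 197 and 212 CPM in pancreas, and 26.6 and 26.2 CPM in MEFs. Pancreas was lowest among the FAP+ groups for both, without overlap with either other tissue. For Ly6c1 the pancreas level of 204 ± 10.2 CPM (SD, n = 2) was 3.17-fold below adipose (log2 -1.67 ± 0.42, edgeR adjusted p = 0.0501) and 3.28-fold below muscle (log2 -1.71 ± 0.42, edgeR adjusted p = 0.0782). Both differences missed the threshold of 0.05 and passed it on recovered reads (log2 -1.33 and -1.72, edgeR adjusted p = 0.0225 and 0.0190). For Ly6a they were log2 -0.99 ± 0.43 (edgeR adjusted p = 0.193) and -1.10 ± 0.43 (edgeR adjusted p = 0.299). In these comparisons 3.32% of all genes were called higher in pancreas than in adipose and 5.73% lower, and 1.54% higher and 2.14% lower than in muscle, while 0 of the 10 members were called by edgeR. At an unadjusted edgeR p under 0.05 there were 2 members against adipose (Pi16, Ly6c1) and 4 against muscle (Pi16, Ly6a, Ly6c1, Cygb). The share of all genes at that p was not counted, so these numbers show nothing particular to the members. DESeq2 called 2 members against adipose and 1 against muscle, beside 2304 of 15349 and 1006 of 14929 genes. Member calls also changed when an adipose library was left out.

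Between the 2 libraries of each FAP+ group, the ratio of Ly6c1 to Ly6a in FPKM changed less than either gene. In MEFs it changed more than either. As a ratio of FPKM, adipose gave 0.505 and 0.521, muscle 0.503 and 0.472, pancreas 0.313 and 0.327, and MEFs 0.220 and 0.176. The ratio was lower in pancreas than in adipose or muscle, without overlap. The Ly6 genes share sequence, which limits how far their reads can be assigned. The longest coding transcripts of Ly6c1 and Ly6c2 were 95.02% identical, and 23.5% of the 30-base words of Ly6c1 transcripts occurred in Ly6c2. For Ly6a and Ly6c1 identity was 75.1%, with 22.2% of Ly6a words found in Ly6c1. Ly6c2 followed Ly6c1 at a near-constant 0.0199 to 0.0321 of its FPKM in all 8 libraries, MEFs included, and its values are uncertain for that reason. In RPKM the ratio was only 0.00164 to 0.00258 in the FAP+ libraries and 0 in both MEF libraries. The level of Ly6c2 thus depends on which deposited values are used.

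Thy1 encodes the GPI-anchored antigen CD90. It read 493 and 123 CPM in adipose, 313 and 345 CPM in muscle, 270 and 255 CPM in pancreas, and 57.4 and 45.3 CPM in MEFs. The second adipose library was at 0.250 of the first, and the pair spanned every other FAP+ value. Pancreas minus adipose was log2 -0.23 ± 0.55 (edgeR adjusted p = 0.832) and turned to 1.08 (edgeR adjusted p = 0.0312) without the first adipose library, so no direction is given. Muscle minus adipose was 0.10 ± 0.55 (edgeR adjusted p = 0.935).

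**Figure D2:**
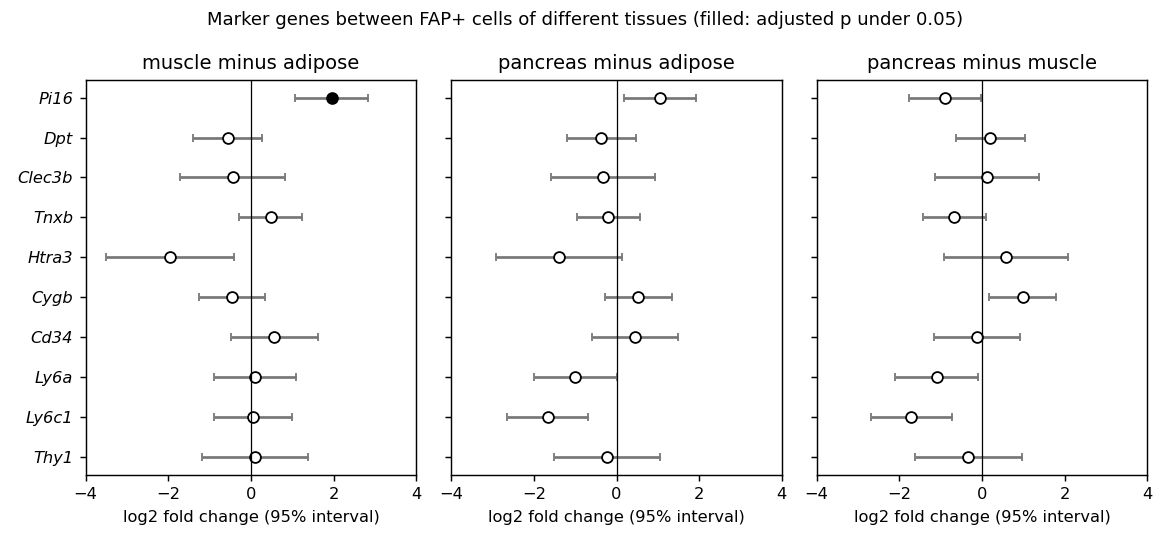
Log2 fold change with its 95% interval for each gene between FAP+ cells of 2 tissues, in 3 panels (x axis), with genes on the y axis and filled points for an adjusted p under 0.05. The 1 filled point is Pi16 in muscle minus adipose at 1.95, and unfilled intervals that exclude 0 are those of Pi16 and Ly6c1 for pancreas minus each other tissue, Ly6a and Cygb for pancreas minus muscle, and Htra3 for muscle minus adipose.

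Against MEFs all 10 members were higher in each of the 3 tissues, the contrast that had chosen them. Among all genes, calls higher than MEFs made up 26.9% in adipose, 23.7% in muscle and 23.1% in pancreas, and those called lower 23.2%, 20% and 19.4%. The members divided by their MEF level. Clec3b, Pi16, Tnxb and Cygb had 6, 13, 16 and 38 fragments in MEFs, Dpt had 97 and Htra3 438. Cd34, Ly6a, Ly6c1 and Thy1 were well measured there, with 7147, 8792, 1750 and 3409 fragments. Fold differences for the first set ran from 266 (Htra3 in muscle) to 32116 (Clec3b in adipose), and for the 4 surface antigens from 4.74 (Ly6a in pancreas) to 25.4 (Ly6c1 in muscle). No member had an intermediate fold between 25.4 and 266.

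The size of the largest folds is loosely set by the few MEF fragments. For Clec3b in adipose the ratio of pooled fragments was 33472 with a 95% counting interval of 15378 to 91209. That interval covers counting error only, and over the 17 alternative settings the log2 difference of Clec3b in adipose ran from 11.08 (limma on log2(FPKM + 1), whose pseudocount shrinks it) to 18.98 (without the first MEF library, which leaves a MEF level of 0), around 14.97. On log2(FPKM + 1) the adipose differences of Pi16 and Tnxb were 8.16 and 6.87. For Pi16 the log2 difference from MEFs was 12.17 ± 0.60 in adipose, 14.12 ± 0.64 in muscle and 13.23 ± 0.62 in pancreas. For Dpt it was 10.70 ± 0.54, 10.13 ± 0.53 and 10.34 ± 0.54 in the same order, and for Tnxb 12.51 ± 0.54, 12.98 ± 0.55 and 12.31 ± 0.54. The surface antigens gave smaller values, such as 3.61 ± 0.50, 4.17 ± 0.51 and 4.05 ± 0.51 for Cd34 and 2.58 ± 0.59, 2.68 ± 0.59 and 2.35 ± 0.58 for Thy1.

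The median over the 10 members was log2 9.87 in adipose, 8.66 in muscle and 9.45 in pancreas, beside medians over all genes of 0.05, 0.03 and 0.02. Together the members took 1.22% to 1.77% of all fragments in the FAP+ libraries and 0.0416% and 0.0443% in MEFs. The 3 contrasts share the MEF libraries.

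**Figure D3:**
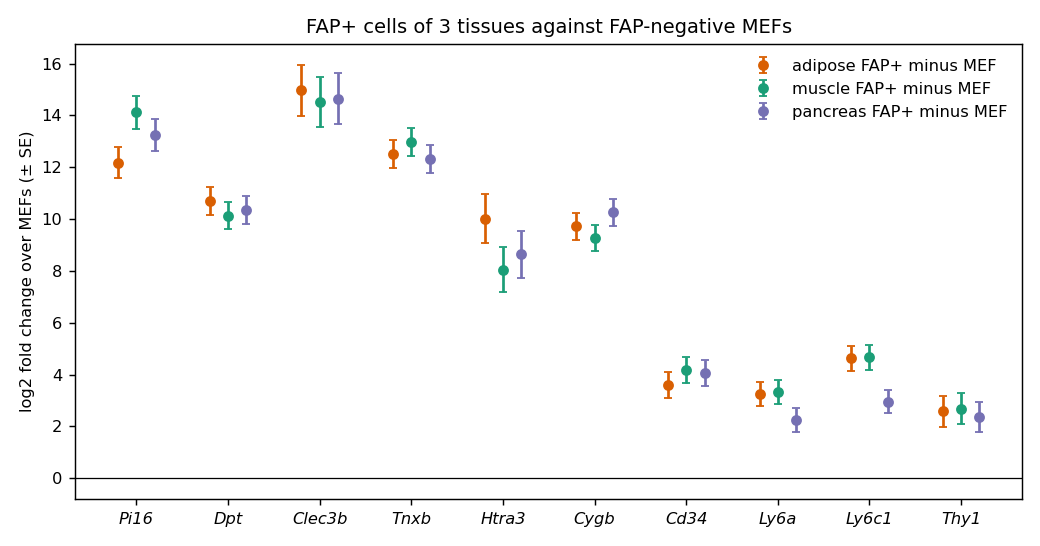
Log2 fold change over MEFs with its standard error (y axis) for each gene (x axis) in adipose, muscle and pancreas FAP+ cells. The 6 genes on the left lie between 8.05 and 14.97 and the 4 surface antigens on the right between 2.24 and 4.67.

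Per length, Pi16 and Dpt exchanged order between tissues. In FPKM, Pi16 read 195 and 550 for adipose, 2119 and 1513 for muscle, and 1045 and 1136 for pancreas. In the same order Dpt read 932 and 1538, 1218 and 1067, and 1358 and 1573 FPKM. The ratio of Pi16 to Dpt was 0.209 and 0.358 for adipose, 1.74 and 1.42 for muscle, and 0.769 and 0.722 for pancreas, without overlap. Pi16 exceeded Dpt only in the muscle libraries among these 6, and the deposited RPKM values gave the same side of 1 in each of them (1.31 and 1.12 in muscle, 0.0563 to 0.562 elsewhere).

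Set against Col15a1, the marker of parenchymal fibroblasts, Pi16 was 1.73 and 6.47 times as high in adipose, 72.2 and 27.4 times in muscle, and 9.93 and 10.6 times in pancreas, as a ratio of FPKM. Muscle was again highest and adipose lowest without overlap. The RPKM values kept this order, but there Pi16 was below Col15a1 in the first adipose library, at a ratio of 0.770. These ratios describe RNA of the sorted cells as a whole, not shares of cells. Both genes contribute, since Col15a1 read 113 and 85.1 FPKM in adipose and 29.4 and 55.2 in muscle.

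**Figure D4:**
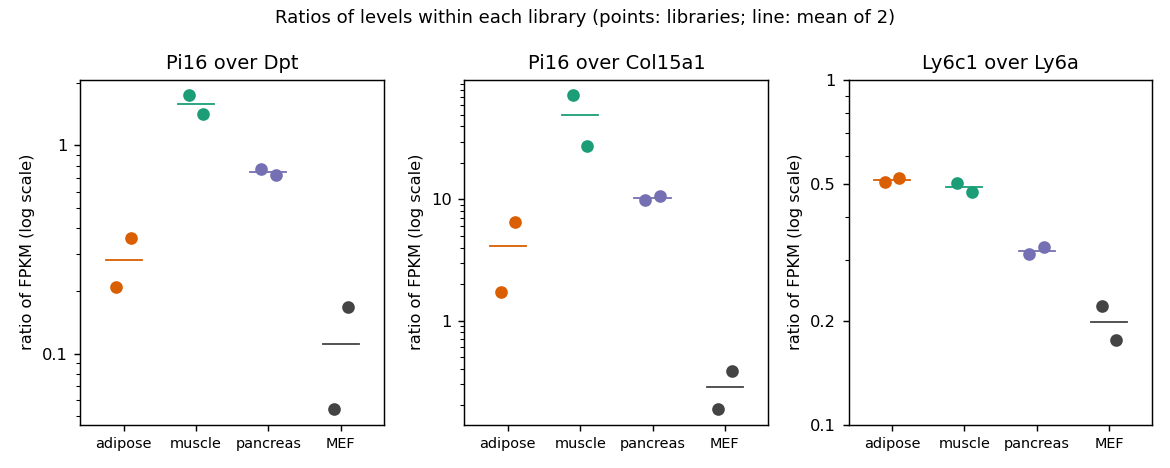
Ratios of FPKM within each library for Pi16 over Dpt, Pi16 over Col15a1 and Ly6c1 over Ly6a (log y axes), by group on the x axis, with points for libraries and a line at the mean of 2. Muscle is highest in the first 2 panels, at 1.74 and 1.42 and at 72.2 and 27.4, and pancreas lies below adipose and muscle in the third, at 0.313 and 0.327.

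Other genes of the adventitial and interstitial progenitor program were also higher in FAP+ cells. Of 18 listed genes, adipose had 14 above MEFs, muscle 16 and pancreas 16, and 0 fell, with median log2 of 4.80, 4.66 and 4.30. The shares of all genes called higher were 26.9%, 23.7% and 23.1%. Dpp4, the surface peptidase used with Pi16 to mark these cells, read 26.3 and 70.3 CPM in adipose, 147 and 128 CPM in muscle, 82.6 and 126 CPM in pancreas, and 0.0899 and 0 CPM in MEFs. With 3 fragments in MEFs, its pooled ratio in muscle was 3005 with a counting interval of 1028 to 14575. Mfap5, a microfibril protein, was 147-fold, 202-fold and 116-fold above MEFs (edgeR adjusted p = 3.4e-05, 4.56e-05 and 4.83e-05). Efhd1, a mitochondrial calcium-binding protein, was 530-fold, 1086-fold and 616-fold above, from 13 MEF fragments. Fndc1 was 80.5-fold above in pancreas, Dact2, a regulator of Wnt and TGF-beta signalling, 133-fold in muscle and Smpd3, a sphingomyelinase, 134-fold in adipose.

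Between tissues 1 gene of these 18 was called. Wnt2, a secreted Wnt ligand, read 2.74 and 2.43 CPM in adipose, 55.6 and 23.5 CPM in muscle, and 6.04 and 8.78 CPM in pancreas. It was 15.3-fold higher in muscle than in adipose (log2 3.94 ± 0.49, edgeR adjusted p = 0.00724) and 5.33-fold lower in pancreas than in muscle (log2 -2.41 ± 0.45, edgeR adjusted p = 0.0306). The median of the list was log2 0.41 for muscle minus adipose, -0.19 for pancreas minus adipose and -0.68 for pancreas minus muscle. Over the members these medians were 0.07, -0.28 and -0.22, and over all genes -0.0057, -0.0012 and -0.0018.

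Genes of parenchymal and pan-fibroblast character were higher too. Of 20 listed genes, adipose had 20 above MEFs, muscle 19 and pancreas 20, and 0 were lower. Beside them, 26.9%, 23.7% and 23.1% of all genes were called higher. Abca8a, a lipid transporter, was 3706-fold, 7030-fold and 5032-fold above MEFs, where it had 5 fragments. Entpd2, an ectonucleotidase, was 2817-fold, 1962-fold and 1920-fold above from 15 fragments. Serping1, the C1 inhibitor, was 1702-fold, 1051-fold and 669-fold above, and Dcn, the proteoglycan decorin that dermatopontin binds, 598-fold in adipose and 364-fold in pancreas.

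The calls between tissues in that list concerned Penk and Apod. Penk, which encodes proenkephalin, read 3525 and 1914 CPM in adipose, 175 and 312 CPM in muscle, and 536 and 458 CPM in pancreas, and was 11.2-fold lower in muscle than in adipose (edgeR adjusted p = 0.0106) and 5.47-fold lower in pancreas (edgeR adjusted p = 0.0221). Apod, a lipocalin, was 9.69-fold lower in pancreas than in muscle (25.9 against 251 CPM, edgeR adjusted p = 0.0402), and 1607-fold above MEFs in muscle.

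Other surface antigens used for mesenchymal progenitors did not follow the members. Of 16 listed, 6, 3 and 5 were higher than MEFs in adipose, muscle and pancreas and 4, 6 and 7 lower, with medians of log2 -0.09, -0.30 and -0.60. Among all genes 26.9%, 23.7% and 23.1% were called higher and 23.2%, 20% and 19.4% lower. Icam1, a leukocyte adhesion receptor, exceeded MEFs 91.7-fold in adipose (log2 6.52 ± 0.42) and less so in muscle (log2 4.32 ± 0.38) and pancreas (log2 3.25 ± 0.37). Eng, the TGF-beta co-receptor endoglin, was 6.11-fold higher in adipose, and Ngfr, a neurotrophin receptor, 18.8-fold in pancreas. Alcam was 153-fold lower in adipose, at 13 fragments, and lower in muscle too (log2 -5.49 ± 0.41), Cd24a was 45.7-fold, 15.3-fold and 17.8-fold lower across the 3 tissues, and Mcam was lower by 16.4 times in muscle and by 16.5 times in pancreas. Nt5e, the ectoenzyme CD73, was 96.2-fold lower than MEFs in pancreas and at 23.5 against 23.0 CPM in adipose, where it was not called.

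Set against adipose, 5 of these 16 antigens were called lower in muscle and 0 higher, and 5 were called lower in pancreas and 1, Alcam, higher (15.3-fold), beside the 3.78% and 5.73% of all genes called lower. Summed endothelial markers were lower in the same direction, at 816 and 818 CPM for adipose and 77.4 to 221 for the other tissues, and their part in these calls was not tested. Icam1 fell short of adipose by 4.58 times in muscle and by 9.65 times in pancreas, and Itga5, the fibronectin receptor subunit, by 2.48 and 4.17 times. Nt5e was 3.72-fold lower in muscle and, at 0.208 and 0.260 CPM against 18.8 and 28.2, 98.3-fold lower in pancreas (9 fragments). Cd9, a tetraspanin, was 2.22-fold lower in pancreas than in muscle (edgeR adjusted p = 0.0489).

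Among family relatives of the members 19 of 22 were tested, of which 10, 12 and 10 were higher than MEFs in adipose, muscle and pancreas and 4, 3 and 3 lower. All genes gave 26.9%, 23.7% and 23.1% higher and 23.2%, 20% and 19.4% lower. Tenascins went opposite ways. Tnc, tenascin-C, read 5.36 to 15.1 CPM in FAP+ libraries against 303 and 210 CPM in MEFs, 33.1-fold, 21.1-fold and 39.6-fold lower (edgeR adjusted p = 0.000144, 0.000252 and 0.000141). The ratio of Tnxb to Tnc in FPKM was therefore 105 to 190 in the FAP+ libraries and 0.000460 and 0.00103 in MEFs. Htra1, another HtrA protease, was 4.65-fold higher in muscle and 7.41-fold in pancreas, and Htra4 44.1-fold in adipose. In FPKM Htra3 exceeded Htra1 in all 6 FAP+ libraries, 1.24-fold to 7.08-fold with the highest in the first adipose library. It stood at 0.0251 and 0.0252 of Htra1 in MEFs. In RPKM Htra3 exceeded Htra1 only in the first adipose library, at a ratio of 1.76, and the other FAP+ libraries gave 0.556 to 0.713. Which of the 2 is higher in FAP+ cells thus depends on the deposited values used.

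Crispld2, a secreted CAP-domain protein related to Pi16, was 28.6-fold, 51.9-fold and 82.5-fold above MEFs. Crispld1, its paralogue, was 13.6-fold higher in muscle than in adipose (edgeR adjusted p = 0.0114) and 6.50-fold lower in pancreas than in muscle (edgeR adjusted p = 0.0347). It read 15.8 and 12.3 CPM in muscle, 1.56 and 2.75 CPM in pancreas and a mean of 0.979 CPM in adipose, the order of tissues seen for Pi16. Ly6e was 6.04-fold above MEFs in pancreas. On the adjusted fragments Ly6c2 was 25.4-fold and 26.9-fold above MEFs in adipose and muscle. There it was called lower in pancreas than in adipose (log2 -1.63 ± 0.32, edgeR adjusted p = 0.0225) and in muscle (log2 -1.72 ± 0.32, edgeR adjusted p = 0.0311), with the uncertainty stated above. Emcn, an endothelial sialomucin, was 8.87-fold lower in muscle and 113-fold lower in pancreas than in adipose.

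The genes whose profile over the 8 libraries lay nearest to Pi16 were sought among 8222 genes, by the root mean square difference of centred log2 CPM. Tnxb, a member, was nearest at 0.62. Next among genes outside the set were Abca8a at 0.80, the eotaxin gene Ccl11 at 1.05, Entpd2 at 1.34, the vitronectin gene Vtn at 1.36 and the transcription cofactor gene Lmo2 at 1.41. For Dpt they were the phospholipase gene Pla1a at 0.26, Entpd2 at 0.32, the glucocorticoid-activating enzyme gene Hsd11b1 at 0.39, the adhesion receptor gene Gpr133 at 0.43 and Serping1 at 0.44. These distances mostly reflect the gap between MEFs and the rest. Within the 6 FAP+ libraries alone Dpt lay nearest to Clec3b among the members, at 0.09, and Pi16 to Cd34, at 0.61. The nearness of Dpt and Clec3b belongs to the adjusted fragments. On recovered reads the first adipose library was the highest FAP+ library for Dpt (4069 CPM) and the lowest for Clec3b (1498 CPM).

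**Figure D5:**
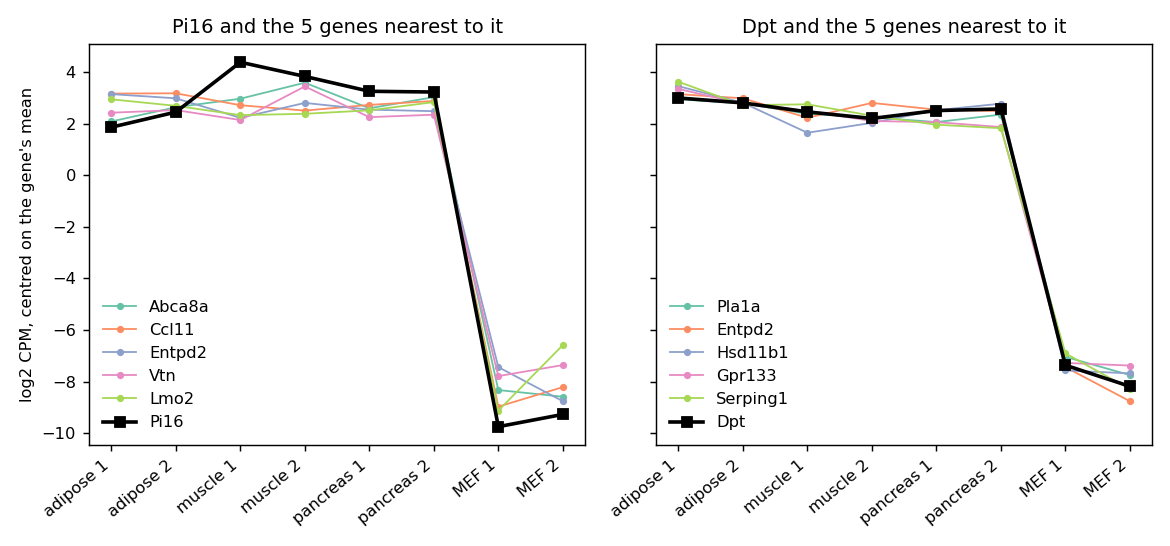
Log2 CPM centred on each gene's mean over the 8 libraries (y axis) for Pi16 and Dpt in black and the 5 nearest other genes in colour, by library on the x axis. All profiles drop in the 2 MEF libraries, and Pi16 rises above its neighbours in both muscle libraries, at 4.38 and 3.83.

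Markers of other cell types were measured in the same libraries because Cd34, Ly6a and Ly6c1 are also carried by endothelium. The summed level of 10 endothelial markers was 816 and 818 CPM in adipose, 119 and 221 CPM in muscle, 77.4 and 80.6 CPM in pancreas, and 33.2 and 35.6 CPM in MEFs, and 9 of 10 were above 10 CPM in each adipose library against 1 in each pancreas library. Their highest genes, Cldn5 and Egfl7, read 194 and 332 and 276 and 121 CPM in adipose, and the defining gene Cdh5 read 47.2 and 31.2 CPM in adipose, 1.47 and 5.96 CPM in muscle and at most 0.156 in pancreas. Outside adipose the sums leaned on single genes. Tek, at 58.0 and 68.7 CPM, made up most of the pancreas sums. It was highest in muscle, at 86.2 and 102 CPM, against 51.6 and 83.6 CPM in adipose. Egfl7, at 30.6 and 32.9 CPM, made up most of the MEF sums. Like the endothelial sum and Cdh5, Ly6a and Ly6c1 were lowest in pancreas among the FAP+ groups, while their muscle and adipose values overlapped. The part of endothelial RNA in their levels was not tested. Cd34 values overlapped between every pair of tissues, and the part of endothelial RNA in its level was not tested either.

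Haematopoietic markers (10 genes) summed to 54.7 and 18.2 CPM in adipose and 2.55 to 3.64 elsewhere, and the defining gene Ptprc was at most 0.649 CPM in any library. Fcer1g and Lyz2 were their highest genes, at up to 33.1 and 6.17 CPM. The 8 adipocyte markers were led by Fabp4, at 6442 and 782 CPM in adipose, and Lipe, at up to 40.5, while Adipoq stayed at 3.50 and 1.95. Mural markers (8 genes) summed to 78.6 to 168 CPM over all libraries, led by Cspg4 and Myh11. Mesothelial markers (8 genes) summed to 206 and 103 CPM in pancreas and 18.4 to 128 elsewhere, led by Krt8 and Wt1. Myogenic markers (8 genes) summed to 18.1 to 70.0 CPM, led by Tnnt3 and Acta1, with Pax7 at most 0.472. Pancreatic exocrine and islet markers (9 genes) summed to 120 and 59.7 CPM in pancreas and at most 6.55 elsewhere, led by Ctrb1 and Cela2a. Schwann cell markers (6 genes) summed to 14.1 to 49.3 CPM, led by Mbp and Ncmap. No listed marker was at 0 in all 8 libraries. The Schwann cell sum was 14.1 and 14.4 CPM in adipose, 49.3 and 43.0 CPM in muscle and 38.9 and 30.5 CPM in pancreas, without overlap, while its defining gene Sox10 was at most 1.14 CPM in any library.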

How the data were processed

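Mouse RNA-seq libraries, 8 in 4 groups of 2, were analysed from 3 deposited tables. Per the file headers, the authors' tables hold bias-adjusted estimated counts of fragments, bias-adjusted FPKM values and RPKM values per gene. Build mm9 and the tools Bowtie2, TopHat2, HTSeq and edgeR come from the submitters' processing notes. What made the adjustment was not given in the sources used here. Columns were matched to samples by name, and 6 others per table were not used here. Estimated counts were rounded and tested with edgeR 4.0.16 (R 4.3.3): TMM, filterByExpr on the groups, quasi-likelihood test, all 8 libraries in 1 fit with 4 residual degrees of freedom, a common biological coefficient of variation of 33.2%, and Benjamini-Hochberg adjustment over 14847 genes at 0.05. The p-values cover 2 libraries per group. The script recovered known changes in simulated data. Members and gene lists were chosen with earlier results of these data known. Of the 143 listed symbols all were found, 2 by an older name. Besides the 10 members, named genes are up to 4 per list and comparison, those with the largest change among calls whose higher group reached 10 CPM in each library, the 2 highest markers per cell type, and the 5 genes nearest to Pi16 and to Dpt. Alternatives were RLE scaling, DESeq2 1.42.0, no filter, 2-group fits, a replicate block, limma 3.58.1 on log2(FPKM + 1) and log2(FPKM + 0.1) without and with a minimum of 1 FPKM in 2 libraries, leaving out each library, and whole reads recovered from RPKM steps. These gave whole reads for 20855 of 22609 genes (100% of values whole within 0.01), 9434210 to 16682808 per library.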

Additional observations from a re-analysis of the deposited data

Results flagged for a closer look

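The Pi16 difference between FAP+ cells of muscle and adipose, log2 1.95 by edgeR's quasi-likelihood test (adjusted p = 0.0285, muscle higher in 2 of 2 libraries), is listed because the tissues' effects against the same MEF libraries differed by a test of the difference itself. The effects over MEFs were log2 14.12 in muscle and 12.17 in adipose.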

How the results depend on the processing

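Against MEFs, the contrast that chose the members, their values are a description, and of 170 values per tissue (10 members, 17 alternatives) 34 in adipose, 31 in muscle and 31 in pancreas moved by more than the spread between replicates. Over all genes, leaving out 1 library gave 4321 to 9491, 3382 to 8987 and 3506 to 8830 calls against MEFs for adipose, muscle and pancreas. Fitting only 2 groups gave 4588 genes for adipose. Between tissues the calls depended on the settings. For muscle minus adipose, leave-one-out gave 51 to 5410 genes and 0 to 3 members. DESeq2 gave 1952 genes and 2 members, 2-group fits 74 and 0, limma on log2(FPKM + 1) 451 and 0, on log2(FPKM + 0.1) 363 and 0, with the FPKM minimum 495, and recovered reads 1924. For pancreas minus adipose, leave-one-out gave 8 to 5077 genes and 0 to 6 members, DESeq2 2304 and 2, RLE scaling 1 member, 2-group fits 305 genes, the 3 limma settings 836, 764 and 872, and recovered reads 3205 genes and 1 member. For pancreas minus muscle, leave-one-out gave 58 to 1205 genes and 0 to 3 members, DESeq2 1006 and 1, 2-group fits 1752 and 4, the FPKM minimum 1 member, and recovered reads 865 and 1. The cause of these changes was not tested.

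No member difference that changed sign had passed the test in the main fit. Some passed it in another setting, among them Thy1, Cd34 and Htra3 for pancreas minus adipose. For muscle minus adipose, Clec3b turned to log2 0.053 or 0.0531 on FPKM and 0.30 on recovered reads, Cygb to 0.0700 or 0.0715 on FPKM, and Ly6c1 to -0.0189 with RLE scaling and -0.0139 with DESeq2. Without 1 library, Ly6a ranged from -0.35 to 0.75, Ly6c1 from -0.39 to 0.67 and Thy1 from -0.58 to 1.41. Leaving out the first muscle library gave -0.24 for Ly6a and -0.35 for Ly6c1. For pancreas minus adipose on FPKM, Dpt turned to 0.29, Clec3b to 0.32, Tnxb to 0.45 or 0.46 and Thy1 to 0.73 or 0.74, and on recovered reads Clec3b to 0.27, Tnxb to 0.61 and Thy1 to 0.49. Without the first adipose library Cd34 turned to -0.0969, Thy1 to 1.08 and Htra3 to 0.19. Their other ends, without the second, were 1.30, -0.90 and -2.12. For pancreas minus muscle, Clec3b turned to -0.0224 on recovered reads and Cd34 to 0.037 or 0.0371 on FPKM, and Cd34 ranged from -0.25 to 0.0178 without 1 library, the upper end without the second of muscle.

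The share of higher genes among calls against MEFs was 53.6%, 54.2% and 54.4% in the main fits and 21.7%, 33.7% and 38.4% on log2(FPKM + 1), to which no TMM scaling was applied. Between tissues it was 38.2%, 36.7% and 41.8%, and 55.0%, 62.1% and 54.7%. The median of all genes against MEFs moved to log2 -0.93, -0.59 and -0.47 with the FPKM minimum. Deviations of same-numbered libraries correlated between -0.156 and 0.347, the highest for adipose and pancreas. Each group gives a single such deviation, so these values cannot show whether the numbers pair the samples. With the replicate block, calls numbered 732, 1147 and 471 between tissues, with Pi16 in muscle minus adipose at 1.97 (edgeR adjusted p = 0.0447), and 1, 0 and 0 members called.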
